A study of Homo sapiens with 4 samples.

Results

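Full-length SOX2 bound many stretches of DNA that its isolated DNA-binding domain was not listed at, and a small part of these lay in gene deserts, far from any protein-coding gene. The sites described here are the peak intervals listed for full-length SOX2 alone whose centre lay outside every annotated gene and at least 250 kb from the nearest transcript start of a protein-coding gene. They were selected on the deposited peak lists and on the gene annotation, and 1960 intervals of 57907 in the SOX2 list, or of 43607 listed for SOX2 alone, met the rule. Both their class and their place in a desert follow from that rule and are given as a description.

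The cells were BJ fibroblasts, an established line of human foreskin fibroblasts, in which full-length SOX2 or its DNA-binding domain (SOX2-DBD), each carrying a V5 peptide tag, had been expressed ectopically for 48 h. Binding was mapped by CUT&RUN with an antibody to V5, a method in which an antibody-tethered nuclease releases the DNA around a chromatin protein for sequencing. There were 4 samples, 2 for each protein, and the lists analysed belonged to replicate 1 of each. They show where the whole protein was listed and the domain was not. The SOX2-DBD list is shorter, with 15220 distinct intervals against 57907 in the SOX2 list. Absence from it therefore does not show that the domain was not bound. The promoter that drove expression and whether the cells were 1 clone are not given in the sources used here, and a sample without SOX2 was not analysed here. No RNA or protein data were analysed here, so the fibroblast label was not checked against marker genes. With 1 list per protein, no difference below has a replicate check, and the read depth is unknown.

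SOX2 is a transcription factor of the high-mobility-group box family that keeps embryonic and neural stem cells in their state and helps reprogram fibroblasts. Its box bends DNA by contacting the minor groove at a short motif, ACAAAG or ACAATG on either strand, and SOX2 is known as a pioneer factor because it can bind such motifs in compacted chromatin. Gene deserts are long stretches without protein-coding genes. Some are known to hold distant enhancers of developmental genes, others are silent, late-replicating heterochromatin, and in fibroblasts many of the neuronal genes at their edges are not expressed.

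The sequences at the desert sites are AT-rich and often hold a SOX core motif. The 200-bp windows at the centres of 4 sites with the most SOX core matches are printed 5' to 3' on the forward strand of hg19 (GRCh37), with each match in capitals, because they show both forms of the motif in both orientations. CATTGT and CTTTGT are the motif on the reverse strand. The first window, in the desert between GOT2 and CDH8 and 941 kb from GOT2, holds 5 matches, all read from the reverse strand. The second lies between GLUD2 and GRIA3, the third between INSIG2 and EN1 and the fourth between OTOL1 and SI, and each holds 4 matches.
chr16:59709341-59709540: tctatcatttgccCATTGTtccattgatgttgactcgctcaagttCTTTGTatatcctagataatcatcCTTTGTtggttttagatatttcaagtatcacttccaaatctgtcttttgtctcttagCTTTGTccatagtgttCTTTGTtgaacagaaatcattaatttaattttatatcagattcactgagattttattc
chrX:121088891-121089090: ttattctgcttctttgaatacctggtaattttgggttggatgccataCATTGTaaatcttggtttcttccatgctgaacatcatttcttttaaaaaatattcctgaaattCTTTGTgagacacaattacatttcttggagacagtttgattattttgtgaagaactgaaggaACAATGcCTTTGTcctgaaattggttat
chr2:119133078-119133277: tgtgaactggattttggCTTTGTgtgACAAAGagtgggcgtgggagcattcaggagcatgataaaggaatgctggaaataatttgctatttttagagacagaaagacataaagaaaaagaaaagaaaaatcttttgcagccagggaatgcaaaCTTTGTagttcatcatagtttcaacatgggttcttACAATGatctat
chr3:161941900-161942099: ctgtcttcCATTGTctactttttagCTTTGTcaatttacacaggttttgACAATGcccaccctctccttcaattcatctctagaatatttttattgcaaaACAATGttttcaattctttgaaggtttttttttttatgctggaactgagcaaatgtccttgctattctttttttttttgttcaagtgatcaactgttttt

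Sites of the highest signal did not all hold such a motif at the centre, and of all desert sites 48.0% did. The windows below are the centres of 2 of the 5 sites with the highest total signal, and they are printed because only the first holds a SOX core match. They lie between ZNF337 and DEFB115 and between SLC16A7 and TAFA2.
chr20:25953166-25953365: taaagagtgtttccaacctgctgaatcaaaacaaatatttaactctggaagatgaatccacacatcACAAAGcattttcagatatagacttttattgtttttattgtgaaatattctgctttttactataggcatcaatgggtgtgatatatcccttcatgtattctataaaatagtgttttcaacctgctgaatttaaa
chr12:60928996-60929195: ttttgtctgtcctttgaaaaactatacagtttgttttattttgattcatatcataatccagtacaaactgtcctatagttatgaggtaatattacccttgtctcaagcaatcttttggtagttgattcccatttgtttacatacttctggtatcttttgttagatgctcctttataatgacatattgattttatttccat

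The first of these sites, chr20:25951900-25954632, was 2733 bp wide with a total signal of 11657, the highest of all, and lay 3.34 kb from a long non-coding RNA gene. In its window 61.8% of 31-base words occurred more than once in the genome, against a mean of 4.40% over the windows of all desert sites. The site at chr12:60928313-60929879 had a total signal of 10388 and none of the words in its window was repeated. Of the 5, the sites between NAALADL2 and TBL1XR1 (total signal 11214) and between SLC4A3 and EPHA4 (9280) held 1 and 0 SOX core matches. These 4 sites were also found in the down-sampled SOX2 list, a shorter list deposited for the same sample. Its making is not described in the sources used here, so what being found in it means is not known.

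The site farthest from any protein-coding start, chr4:33109367-33109735, lay 2182 kb from PCDH7, a protocadherin gene, in the desert between PCDH7 and ARAP2. Its window held no SOX core match. The site ranked 3 by distance, chr18:37392653-37393189, lay 2142 kb from PIK3C3, a lipid kinase gene, with a total signal of 1417 and no match. A second site of the PCDH7 and ARAP2 desert lay 2161 kb from PCDH7, was 1593 bp wide and reached a total signal of 6795, and its window is shown because its match, in capitals, is among the most remote from any coding gene.
chr4:33088586-33088785: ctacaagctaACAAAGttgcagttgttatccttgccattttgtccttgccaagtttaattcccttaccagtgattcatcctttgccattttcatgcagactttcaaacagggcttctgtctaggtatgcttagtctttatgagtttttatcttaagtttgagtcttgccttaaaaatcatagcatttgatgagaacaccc

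Desert sites were sparse. Gene deserts outside genes made up 346 Mb, 12.1% of the determined genome, but held 4.49% of the intervals listed for SOX2 alone (Wilson 95% interval 4.30 to 4.69). That is 5.67 sites per Mb (Poisson 95% interval 5.42 to 5.92), against 11.7 per Mb in intergenic sequence nearer to coding starts and 18.6 per Mb inside genes. The ratio to the rest of the genome was 0.342. These and later intervals cover counting error alone, treat intervals as independent although many lie close together, and do not cover variation between samples. Intervals shared with SOX2-DBD had a higher ratio, 0.404, with 754 of 14300 (5.27%, 4.92 to 5.65) in deserts. The counting intervals of this share and of the SOX2-only share did not overlap. Of intergenic intervals alone, 18.4% (17.7 to 19.2) of SOX2-only and 18.9% (17.8 to 20.2) of shared ones lay in deserts. Intervals listed for SOX2-DBD alone had a ratio of 1.11, with 122 of 920 (13.3%, 11.2 to 15.6) in deserts.

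The density of SOX2-only intervals outside genes was highest from 10 to 100 kb from a coding start and lower beyond that. It was 10.5 per Mb (9.90 to 11.1) within 10 kb, 13.1 (12.7 to 13.6) from 10 to 50 kb, 12.2 (11.7 to 12.8) from 50 to 100 kb, 10.2 (9.78 to 10.6) from 100 to 250 kb, and 6.89 (6.49 to 7.32) from 250 to 500 kb, where deserts begin. It was 5.71 (5.21 to 6.24) from 500 to 750 kb, 4.31 (3.74 to 4.94) from 750 to 1000 kb, and 3.40 (2.94 to 3.91) beyond 1000 kb, where 196 sites lay. The counting intervals of neighbouring desert bands did not overlap, except for the last band and the one before it. Shared intervals thinned out in step, so that shared intervals made up 27.8% (25.6 to 30.1) of SOX2 intervals from 250 to 500 kb and 26.3% (21.4 to 31.9) beyond 1000 kb. Over all bands it ranged from 23.8% to 29.9%.

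**Figure D1:**
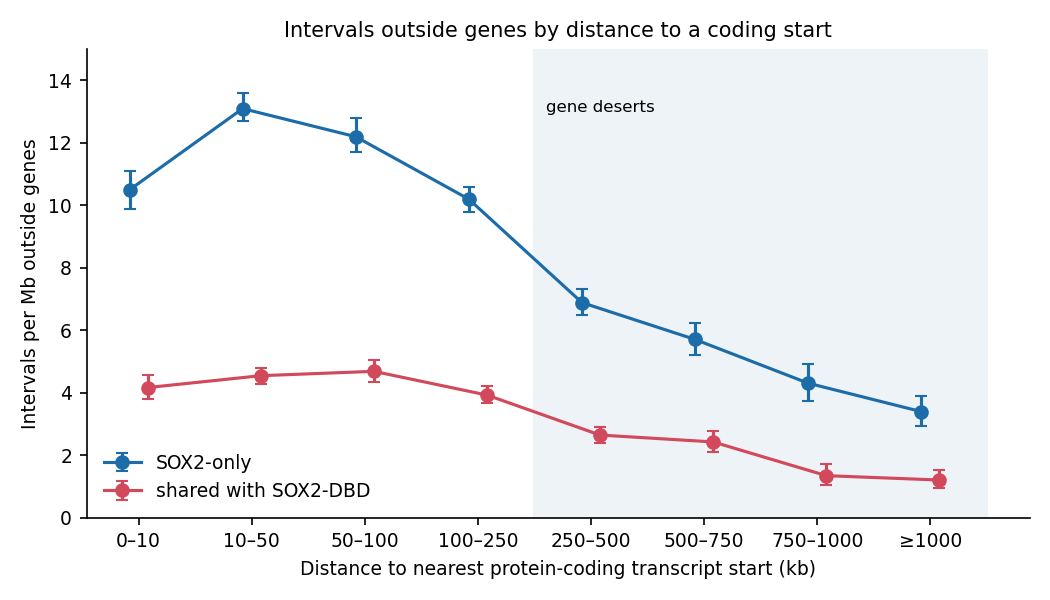
Intervals per Mb of sequence outside genes (vertical axis) by distance to the nearest protein-coding transcript start in kb (horizontal axis), for intervals listed for SOX2 alone and for those shared with SOX2-DBD, with Poisson 95% intervals as bars. The SOX2-only density is 10.5 per Mb within 10 kb and goes from 13.1 per Mb at 10 to 50 kb to 3.40 per Mb beyond 1000 kb, and the shaded bands are the gene deserts.

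The median desert site lay 467 kb from a protein-coding start (interquartile range 330 to 689 kb) and 38.1 kb from any annotated gene (14.6 to 83.8 kb). The nearest gene of any kind was a long non-coding RNA gene for 971 sites (49.5%) and a processed pseudogene, a reverse-transcribed gene copy, for 575 (29.3%). It was a protein-coding gene for 50. As many as 389 sites lay at least 100 kb from any gene, the farthest at 438 kb. On either side of the distance threshold, the 172 sites from 250 to 275 kb had a median width of 570 bp and a median total signal of 2389, and the 237 SOX2-only intervals from 225 to 250 kb had 554 bp and 2265.

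By the authors' values, desert sites were close in width and signal to other SOX2-only intervals. The median width was 575.5 bp (interquartile range 445.75 to 758.5), against 552 bp in intergenic intervals nearer to coding genes and 559 bp in genes. The median total signal was 2246.5 (1624.75 to 3143), against 2254 and 2285, and the median maximum signal was 9, against 10 and 10. Desert sites made up between 4.06% and 5.02% of each of 10 equal-sized classes of SOX2-only intervals by total signal. In the down-sampled list, 1242 of 1960 (63.4%, 61.2 to 65.5) were found, against 64.2% (63.1 to 65.2) of nearer intergenic and 64.4% (63.9 to 64.9) of genic SOX2-only intervals. The share found ranged from 58.2% to 66.8% over the 10 classes. Shared intervals in deserts were narrower (median 366 bp), but in which sample their limits and signal were measured is not stated.

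A single desert site departed from this. The interval chr4:116286111-116286139, 251 kb from NDST4, a heparan sulfate modifying enzyme gene, was 29 bp wide with a maximum signal of 111, while no other desert site exceeded 25 and 99% lay at or below 18. It was not in the down-sampled list, and it was picked out after its values were seen. No other desert site was under 50 bp wide, but 21 of 754 shared desert intervals were.

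Desert sites were spread very unevenly over the 695 deserts. None was found in 412 deserts, and 48 deserts held 50% of all sites. The empty ones include small deserts, such as that between HDAC4 and NDUFA10 with 0.0921 Mb outside genes, where an absence says little. The 8 richest deserts held 276 sites (14.1%) on 3.55% of the desert sequence, at 22.5 per Mb. Among the 85 autosomal deserts with at least 1 Mb outside genes, the median was 0.930 sites per Mb (interquartile range 0 to 5.15, highest 30.6) and 37 held none. At the average of these 85 deserts, 4.01 per Mb, 227 sites would have lain in the 56.6 Mb of those 37.

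The deserts with the most sites lay between CDC73 and KCNT2 on chromosome 1 and between ZEB2 and ACVR2A on chromosome 2, with 46 sites each, at 25.6 (18.8 to 34.2) and 25.4 (18.6 to 33.9) per Mb. KCNT2 encodes a potassium channel of neurons, and ZEB2 a zinc-finger repressor of epithelial genes. The desert between OTOL1 and SI held 33 sites at 14.0 per Mb. Those between CCDC179 and LUZP2 and between CITED2 and NMBR held 32 each, at 32.7 (22.4 to 46.2) and 30.6 (20.9 to 43.1) per Mb. The desert between DPPA4 and NECTIN3 held 30, that between ZPLD1 and ALCAM 29, and that between RFPL4B and MARCKS 28 on 0.849 Mb, 33.0 per Mb. The intervals of the densest of these overlap, so their order is not resolved. A desert between SEL1L and FLRT2 also held 28, on 2.91 Mb.

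At the other end, the deserts between the cadherin genes CDH9 and CDH6 on chromosome 5 (2.49 Mb outside genes), between LINGO2 and ACO1 on chromosome 9 (2.46 Mb) and between OLFM4 and PRR20C on chromosome 13 (2.32 Mb) held 0 sites. Counts of 0 there allow at most 1.48 sites per Mb in the first and 1.59 in the third (Poisson 95% upper limits). These deserts held no shared interval either. Of the 37 large autosomal deserts without sites, 35 had no shared interval, and the others held 3 in all.

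**Figure D2:**
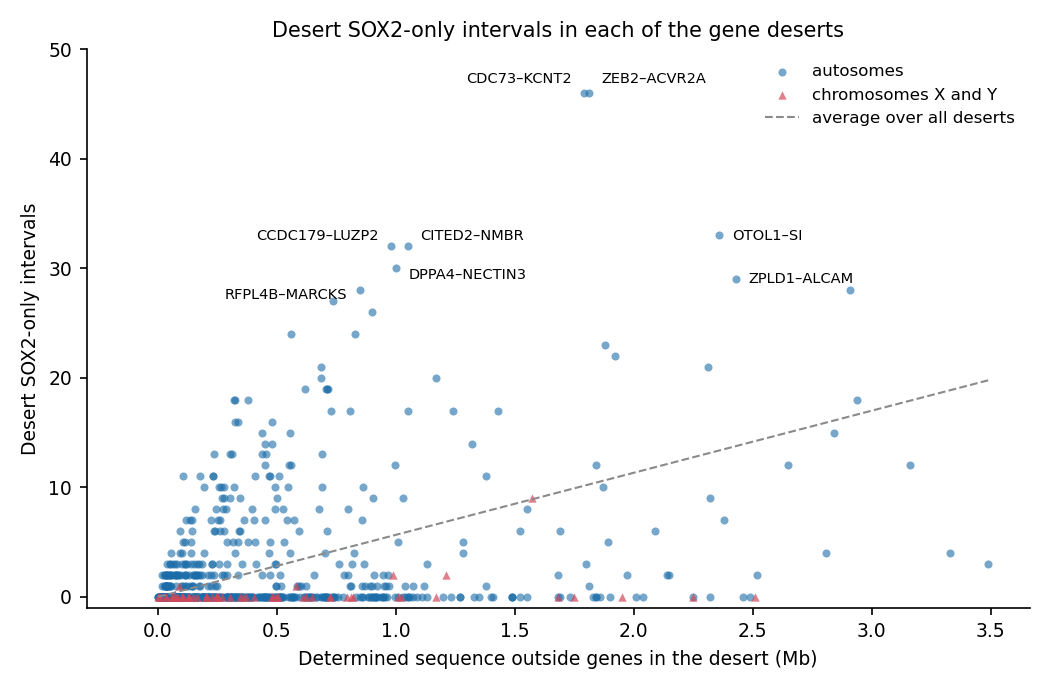
Number of desert SOX2-only intervals (vertical axis) against determined sequence outside genes in Mb (horizontal axis) for each of the 695 gene deserts, with autosomes as circles, chromosomes X and Y as triangles and the average of 5.67 per Mb as a dashed line. Deserts of the same size range from 0 sites to 46, and the 8 labelled deserts hold the most.

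Rich and empty deserts were close in base composition. Median GC content was 35.1% in the 37 empty large deserts and 35.5% in those with sites, and both kinds had a median of 1.85 SOX core matches per kb. Over the 85 deserts, the Spearman correlation of site density with GC content was 0.0229 and with SOX core density 0.0335. Deserts in the middle of 3 classes by GC content held 5.75 sites per Mb, against 2.86 in the lowest and 3.37 in the highest. With the density of shared intervals the correlation was 0.851, a description across deserts of the same lists, whose points share library and peak list. The mixture of classes still varied. Shared intervals, 25 in number, were 45.5% (33.0 to 58.5) of the SOX2 intervals between DPPA4 and NECTIN3 and 9.80% (4.26 to 21.0) between ZEB2 and ACVR2A, a difference of 35.7 percentage points (Newcombe 95% interval 18.9 to 49.8) between deserts picked as the extremes of 8.

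Chromosomes differed as well. Site density was highest on chromosome 12 (10.5 per Mb of desert, 8.68 to 12.6), chromosome 1 (10.00, 8.57 to 11.6) and chromosome 3 (9.65, 8.41 to 11.0), whose intervals overlap. Chromosome X held 13 sites on 23.5 Mb (0.553 per Mb, 0.294 to 0.946), and intergenic SOX2-only intervals nearer to genes were also sparse there, at 2.08 per Mb against 13.2 on chromosome 1. Chromosomes 19 and 22 held 1 each, on 1.49 and 1.98 Mb.

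Many sites lay close to another site. The median of 1677 gaps between neighbouring sites of a desert was 23.6 kb (interquartile range 10.2 to 52.1 kb). Over the same gaps, the sequence outside genes per site of the desert concerned had a median of 39.0 kb. The median ratio of a gap to that amount was 0.519, or 0.549 in deserts with 10 or more sites. Sites placed at random would also give gaps mostly shorter than that amount, so these ratios alone do not show crowding. With sites joined at gaps of up to 20 kb, 740 stood alone, 1220 (62.2%) fell into 464 runs, and 175 runs held 3 or more. Another SOX2 interval of any class lay within 10 kb of 47.9% of desert sites, of 47.8% of nearer intergenic SOX2-only intervals and of 58.9% of those in genes.

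The largest runs held 8 sites each. The run at chr6:141642299-141676331 spanned 34.0 kb in the CITED2 and NMBR desert, and its sites had total signals of 1422, 3490, 1228, 4407, 7109, 4493, 3280 and 3132 in genomic order, the highest in the middle. The coding gene nearest to this run was NMBR, at 721 kb. CITED2, at the other edge of the desert, encodes a transcriptional co-regulator needed for heart and neural crest development. The run at chr4:61421610-61488421, 578 kb from the synaptic adhesion receptor gene ADGRL3, spanned 66.8 kb, and its 4 sites up to chr4:61447762 lay between 1185 and 1789 while the next reached 5810. The run at chr12:84915073-84977000, 281 kb from the amino acid transporter gene SLC6A15, spanned 61.9 kb with total signals from 1732 to 5662. Within it, chr12:84954872-84955464 and chr12:84955801-84956742 are listed as separate sites although nearly adjacent. Whether such neighbours were a single bound stretch was not tested. The first and second of these runs held 1 shared interval each between their sites and the third held 0. A run of 7 sites lay 255 kb from TGFBR2, the type II receptor of TGF-beta, and held 3 shared intervals. Another run of 7, 764 kb from ALCAM, a cell adhesion gene, held 0.

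The SOX core motif was more frequent at desert sites than around them. It was present in 940 of 1960 windows of 200 bp (48.0%, 45.8 to 50.2), against 30.6% (28.6 to 32.6) of windows 10 kb downstream, a difference of 17.4 percentage points (Newcombe 95% interval 14.4 to 20.4). All 200-bp windows of the deserts had it in 30.4%, and in 32.8% when weighted to the GC content of the sites, which averaged 33.0% against 37.0%. The share was the same in nearer intergenic SOX2-only intervals, 48.0% (difference -0.0671 points, -2.51 to 2.38), and it was 45.9% in shared desert intervals (difference 2.07 points, -2.12 to 6.23). In the 122 desert intervals listed for SOX2-DBD alone it was 37.7% (29.6 to 46.6). Single matches were the rule, with 1 match in 35.2% of windows, 2 in 10.7% and 3 or more in 2.04%, and 52.0% held none, the same share as in nearer intergenic SOX2-only intervals.

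The motif was denser across the site than beside it. Its density was 3.21 matches per kb within 50 bp of the centre and 1.93 per kb at 300 to 500 bp. The control letters GAAACA or GTAACA, the core read backwards, rose less, from 1.65 to 1.92 per kb. They were present in 30.9% of site windows, 25.3% of downstream windows and 28.3% of desert windows weighted for GC content. The SOX core share was 48.5%, 48.5% and 46.8% in the lowest, middle and highest of 3 equal-sized classes of sites by total signal. It was 47.6% (44.8 to 50.4) in sites found in the down-sampled list and 48.6% (45.0 to 52.3) in those not found.

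**Figure D3:**
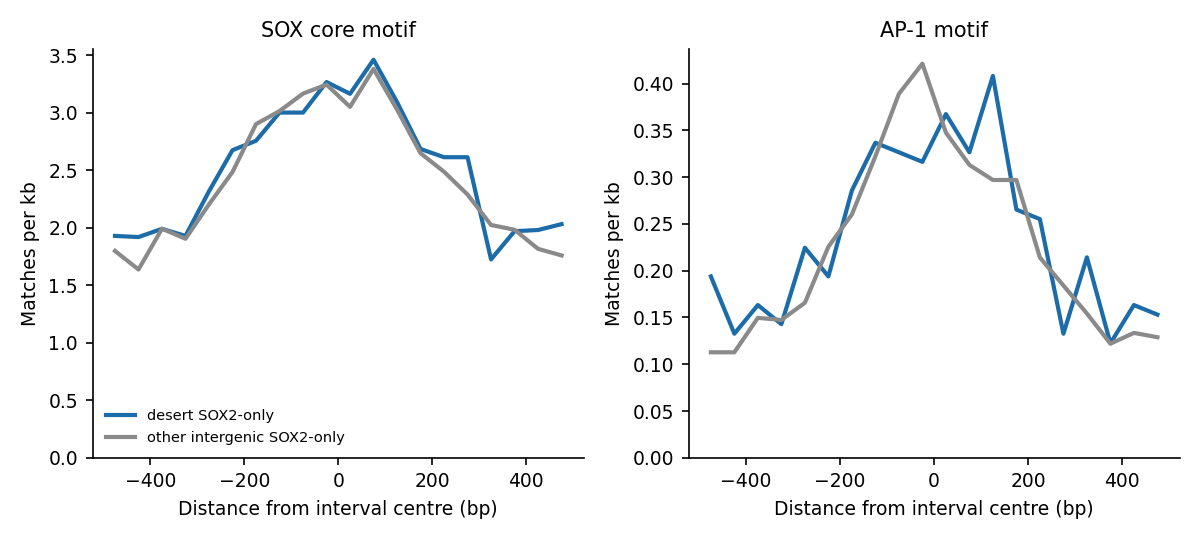
Matches per kb (vertical axes) of the SOX core motif and of the AP-1 motif against the distance from the interval centre in bp (horizontal axes, bins of 50 bp), for the 1960 desert SOX2-only intervals and the 8689 SOX2-only intervals outside genes nearer to coding starts. Both motifs are denser within about 150 bp of the centre than at 300 to 500 bp in both groups, with 3.21 SOX core matches per kb within 50 bp of the centre of desert sites and 1.93 per kb at 300 to 500 bp.

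AP-1, the dimer of FOS and JUN family proteins that is active at fibroblast enhancers, had the largest difference of the 11 motifs counted between SOX2-only and shared desert intervals. Its motif, TGACTCA or TGAGTCA, was in 120 of 1960 desert site windows (6.12%, 5.14 to 7.27), against 3.21% of windows 10 kb downstream and 2.96% of all desert windows. In shared desert intervals it was in 131 of 754 (17.4%, 14.8 to 20.2), which puts the SOX2-only sites at a difference of -11.3 percentage points (-14.3 to -8.47). The same gap stood nearer to genes, with 6.93% of SOX2-only and 18.0% of shared intergenic intervals. TEAD motifs (GGAATG), bound by the factors through which YAP acts, were in 15.9% of desert sites, 12.1% of downstream windows, 10.4% of all desert windows and 20.2% of shared desert intervals, a difference from the last of -4.24 points (-7.63 to -1.05).

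The octamer ATGCAAAT, bound by POU factors that partner SOX2 in stem cells, was in 4.29% (3.47 to 5.28) of desert sites, 2.70% of downstream windows, 2.62% of all desert windows and 2.86% of SOX2-only intervals in genes. The difference from those in genes was 1.42 points (0.593 to 2.43) and from nearer intergenic ones 0.856 points (-0.0497 to 1.91). Shared desert intervals had the octamer in 3.98%, and the difference from them was 0.307 points (-1.53 to 1.85). Weighted to the GC content of the sites, the octamer was in 3.18% of all desert windows. In windows at the region of maximum signal of each desert site, the octamer share was 3.57% (2.84 to 4.49). The homeodomain letters TAATTA were in 10.2% of sites, 11.0% of downstream windows and 11.2% of all desert windows, or 14.0% when these were weighted to the GC content of the sites. Forkhead (TGTTTAC, 3.62% against 3.57% downstream, 3.61% of all desert windows), RUNX (TGTGGT, 12.8% against 13.9%, 12.4%) and E-box letters (CAGCTG, 4.74% against 5.77%, 5.18%) had differences from downstream windows whose intervals included 0. Weighted to the GC content of the sites, the shares of all desert windows were 4.20%, 11.2% and 3.24%. By that measure RUNX and E-box letters were more frequent at desert sites. Downstream windows weighted the same way had 13.2% for RUNX, above the share at sites, and 3.63% for E-box letters, below it. The extended SOX motif AACAATAG or AACAATGG, whose second form contains the core ACAATG, was in 3.16% of sites, 2.14% of downstream windows and 1.99% of all desert windows. All motifs were sought on both strands. A match is only a stretch of these letters.

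**Figure D4:**
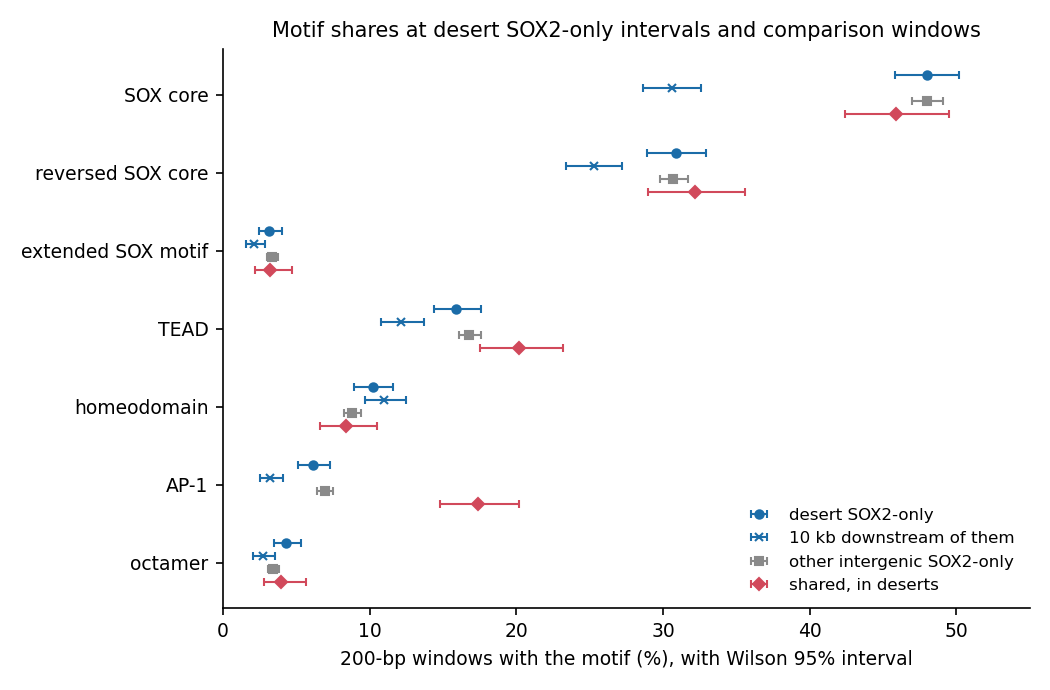
Percent of 200-bp windows with each of 7 motifs (horizontal axis, bars are Wilson 95% intervals) at the 1960 desert SOX2-only intervals, 10 kb downstream of them, at nearer intergenic SOX2-only intervals and at shared intervals in deserts. The SOX core stands at 48.0% at desert sites and 30.6% downstream, and AP-1 stands at 6.12% at desert sites and 17.4% at shared desert intervals.

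Repeated DNA was less common at the sites than around them. None of the 31-base words was repeated elsewhere in the genome in 76.8% of site windows and in 69.1% of windows 10 kb downstream, and over 50% of words were repeated in 2.14% and 8.98%. The corresponding mean shares of repeated words were 4.40% and 10.4%, against 5.65% and 13.9% for nearer intergenic SOX2-only intervals. How far such sequence bears on where peaks could be found was not tested.

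The sites were assigned to the nearest protein-coding start, which does not say that they act on it. In all, 387 of the 1153 coding genes nearest to some desert sequence (33.6%) were nearest to a desert site. For 5 gene lists, the sites were compared with the number of sites that the same amount of desert would hold at the average density for its distance to a start, separately for autosomes and sex chromosomes. The lists were written with earlier results known, so their ratios are descriptions.

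The highest density among the lists was next to genes of the list named fibroblast matrix and signalling genes. That list also holds guidance factor genes, and expression of its genes in these cells was not measured here. Desert sequence nearest to 21 genes of extracellular matrix and fibroblast signalling held 99 sites on 3.43 Mb, 28.9 per Mb (23.5 to 35.2), which was 4.04 times the average at the same distances (3.29 to 4.92), and 16 of the 21 genes had at least 1 site. ADAMTS5, a protease that cleaves aggrecan, had 19 at 295 to 920 kb, and without it the ratio was 3.80 (3.01 to 4.73). SEMA3D and SEMA5A, guidance factors, had 10 each, PDGFC, a growth factor ligand of fibroblasts, had 9 on 0.160 Mb, COL8A1, a collagen chain, 8, and TGFBR2 7. HGF, a growth factor secreted by fibroblasts, had 6, and TGFB2, HAS2, which makes hyaluronan, and SULF1, which trims heparan sulfate, had 5 each.

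Developmental transcription factors and morphogens, 57 genes next to desert, had 116 sites at 1.33 times the average (1.10 to 1.59). ZEB2 alone had 22, at 751 to 1654 kb, and without it the ratio was 1.11 (0.896 to 1.36), an interval that includes 1. NR2F1, an orphan nuclear receptor of neural crest and cortex, had 19 at 35.4 per Mb. SOX9, a SOX factor of cartilage whose enhancers are known to lie far out in its desert, had 15 at 471 to 904 kb. TBX3, a limb and mammary T-box factor, had 8. Sites lay nearest to 21 of the 57 genes.

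The other 3 lists hold adhesion, receptor and channel genes, many of them neuronal, and stood at or below the average. Cadherins and protocadherins had 48 sites, 0.472 times the average (0.348 to 0.626), and 20 of these belonged to CDH2, the N-cadherin of mesenchymal and neural cells, without which the ratio was 0.292 (0.194 to 0.421). PCDH9 had 11 and CDH11, a mesenchymal cadherin, 6. Synapse adhesion genes had 94 sites (0.666, 0.538 to 0.814), of which FLRT2 and SLITRK1 had 25 each. Neurotransmitter receptor and ion channel genes had 56, at 0.998 times the average, of which KCNT2 had 31 at 25.6 per Mb, and without KCNT2 the interval of the ratio was 0.324 to 0.738. HTR2A, a serotonin receptor, had 9.

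**Figure D5:**
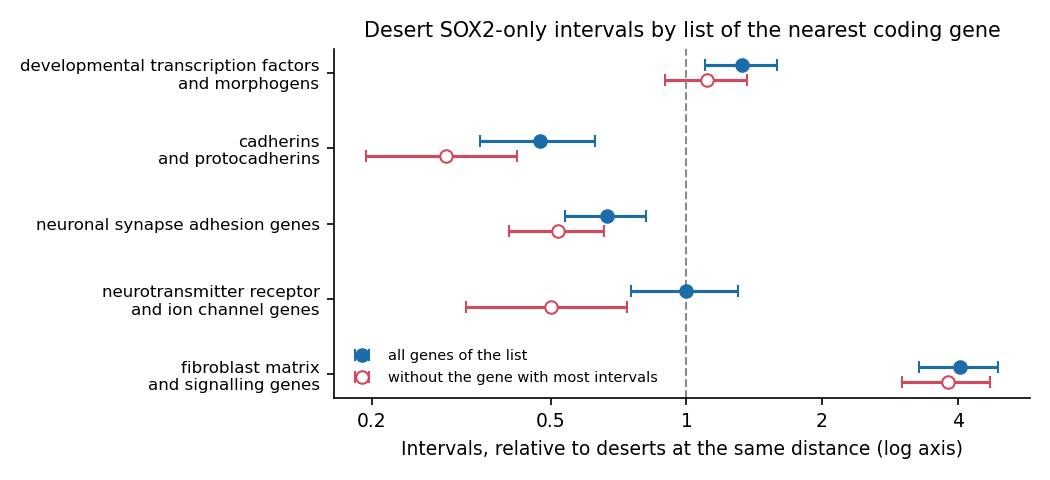
Desert SOX2-only intervals whose nearest protein-coding start belongs to each of 5 gene lists, relative to deserts at the same distance (log axis, 1 is average), with Poisson 95% intervals as bars, for all genes of a list (filled) and without the gene that has the most intervals (open). Fibroblast matrix and signalling genes stand at 4.04, cadherins and protocadherins at 0.472, and receptor and channel genes at 0.998, or below 0.738 without KCNT2.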

How the data were processed

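Per the labels, V5 CUT&RUN was done in 4 samples of BJ fibroblasts. The deposited files are 3 interval lists of replicate 1 (SOX2, SOX2-DBD and down-sampled SOX2), with positions in hg19. Total and maximum signal are the authors' deposited values, and their normalization, threshold and control, any pooling of replicates and the read depth are not given in the sources used here. Per the submitters' processing notes, Bowtie2 2.3.4.1, SAMtools, bedtools 2.27.1, SEACR 1.3 and deepTools 3.5.0 were used.

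Rows of the SOX2 list without a seventh column were taken as SOX2-only, since rows with one recur in the SOX2-DBD list, and 1654 exact duplicates were counted once in each of those 2 lists. Centres were placed against GENCODE release 44 mapped to GRCh37. Desert sequence was counted base by base, without undetermined bases, for densities outside the gene lists. For motif shares and gene lists it was measured in 200-bp windows without undetermined bases. Of 11 motifs counted, the text gives those with a stated role and leaves the longer SOX motif to the alternatives. Overlap was counted from 1 bp. Shares carry Wilson intervals, densities Poisson intervals and differences of shares Newcombe intervals, all at 95%, with no p-value.

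The rule for named sites took the 5 of highest total signal, the 3 farthest from a coding start and the 5 with most SOX core matches. Deserts named were the 8 with the most sites, the 4 densest of at least 1 Mb with at least 10 sites and the 3 largest empty autosomal ones, and runs named were the 3 largest. Up to 4 genes per list were named, and further names were chosen after their values were seen. The sites, lists and rules were chosen with earlier results of these data known. Some items that the rules select, 1 of the first 5 and 1 of the last 5 sites among them, are not reported here. Software used was samtools 1.23.1, pyfaidx 0.9.0.4, numba 0.67.0, scipy 1.17.1, matplotlib 3.10.9, pandas 2.3.3, numpy 2.4.6 and python 3.11.15. The code was tested on simulated data.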

Additional observations from a re-analysis of the deposited data

How the results depend on the processing

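Deserts from 500 kb or from 100 kb gave 882 or 4111 sites, shares of 2.02% or 9.43% of SOX2-only intervals and density ratios to the rest of the genome of 0.291 or 0.430. Requiring only that a site lie outside protein-coding genes gave 3446 sites (7.90%), and the upper 50% by total signal gave 964 sites with a median width of 758 bp. Placing sites by the region of maximum signal gave the SOX core in 50.5% and AP-1 in 7.99% (30.2% and 2.60% downstream), so that the AP-1 ratio to downstream windows went from 1.90 to 3.08. Windows of 100 bp gave 26.8% and 3.21% (17.2% and 1.28% downstream), and the longer SOX motif 11.1% (7.86% downstream). Requiring 50% of a site to be covered left 53.3% in the down-sampled list. The cause of these moves was not tested beyond the construction of each alternative. The other alternatives stayed within the counting intervals of these measures, and median total signal did so in all 4. No paired analysis was possible because there was 1 list per protein. The lists limit precision by their number, and their read depth is unknown.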

Other observations

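Six-base words give a view of the desert sites that no chosen motif sets. Among 1474 words present in at least 50 windows 10 kb downstream, GAATGC had the highest ratio of site windows to downstream windows, 1.87 (14.3% against 7.65%). ACAATG, one form of the SOX core, was next at 1.77 (26.0% against 14.7%), and CATTCA ranked 3 at 1.74 (24.6% against 14.1%). ACAAAG, the other form, ranked 25 with a ratio of 1.52. Ranked by difference in percentage points over 2080 words, the order is another: AT-rich AAAGAA comes first (16.4 points), ACAATG ranks 7, ACAAAG 17 and GAATGC 62. GAATGC shares 5 letters with the TEAD letters GGAATG, and CATTCA reads TGAATG on the other strand. In nearer intergenic SOX2-only intervals the shares were 13.5% for GAATGC, 24.6% for ACAATG and 24.4% for CATTCA, close to those of the deserts.

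Pairs of SOX core matches in opposite orientation within 20 bp of each other were rare, in 21 desert site windows (1.07%) and in 10 downstream windows (0.510%).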
